A study of Mus musculus with 12 samples.

Results

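Expression was compared between Mut-2 and WT-1, a pair of mouse embryonic stem cell lines. Mut-2 is a mutant line whose label gives the genotype Tin2 S341X, and WT-1 is a wild-type line. The comparison sets 6 of the 12 RNA-seq libraries of the series against each other, the 3 of Mut-2 and the 3 of WT-1, and covers all genes. Log2 fold changes, SEs, p-values and calls come from a fit of all 12 libraries unless another fit is named, so the other lines, WT-2 (wild type) and Mut-1 (Tin2 S341X), also entered the normalisation, the filter on low counts and the estimate of the spread. All 4 lines are C57BL/6 cells derived from blastocysts, and all were grown with serum and LIF on a layer of mouse embryonic fibroblasts, called feeders. Because whole cultures were extracted, each library can hold feeder RNA. The series asks how loss of TIN2 affects telomere maintenance by recombination, known as ALT, and differentiation. Mut-2 is 1 line and WT-1 is 1 line, and the 3 libraries of each are named technical replicates in the design text. Line and genotype therefore cannot be told apart here, and the p-values measure only the spread between libraries of a line.

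Tinf2 encodes TIN2, the subunit of the shelterin complex that bridges the double-strand telomere binding proteins TRF1 and TRF2 to the TPP1-POT1 pair. Shelterin hides chromosome ends from the DNA damage response and controls access of telomerase. Mouse embryonic stem cells carry active telomerase, and cells without it can maintain telomeres by recombination. Embryonic stem cells also depend on signals for self-renewal, in which FGF acting through ERK promotes exit from the naive state and Sprouty proteins restrain that pathway.

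The 6 libraries held between 15251613 and 17891894 counts. WT-1 replicates 1 and 2 were much closer to each other than the other library pairs of a line, with a chi-square per degree of freedom of 1.62 against 10.9 to 38.4. The difference between them exceeded sampling noise all the same, and they stayed 2 libraries. The stem cell markers Pou5f1, Nanog and Sox2 were abundant in each of the 6 libraries, and none of the 10 markers of this list was called. Nanog, for example, stood at 977, 1001 and 736 CPM (counts scaled to a common library size and TMM-normalised) in WT-1 and at 849, 782 and 867 CPM in Mut-2.

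Tinf2 itself was lower in Mut-2. The gene lies on the minus strand of chromosome 14 (GRCm38, 55674689 to 55681820). Codon 341 of the 414 codons annotated as coding in transcript Tinf2-201 is a serine codon, AGT, at 55679924 to 55679926. It falls in exon 7 of 9, and the whole of this coding exon (chr14:55679866-55679930, minus strand) is shown because it holds the position that the genotype label names, with the codon in capitals. The sequence is the GENCODE M21 reference, not one read from these cells.
Tinf2 exon 7: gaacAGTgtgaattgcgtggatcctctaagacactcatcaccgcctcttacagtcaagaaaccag
In WT-1 the Tinf2 level was 69.2, 64.9 and 57.6 CPM, and in Mut-2 it was 30.1, 27.5 and 19.7 CPM. The lines did not overlap, and every Mut-2 library lay below every WT-1 library. The log2 fold change was -1.31 ± 0.17 (SE), a level 2.48-fold lower (adjusted p = 0.00898). WT-2 libraries (64.0, 58.8 and 60.5 CPM) lay beside WT-1, and Mut-1 libraries (29.8, 25.2 and 20.1 CPM) beside Mut-2. In the alternative fits of Tinf2 the direction was the same, but the adjusted p rose to 0.066 with only the 6 libraries, to 0.051 without WT-1 replicate 1 and to 0.0946 without both Mut-2 replicates 1 and 2. Gene counts cannot show the codon change itself.

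Of 16533 genes tested, 48 (0.29%) were called at an adjusted p under 0.05. Levels were higher in Mut-2 for 37 of them (0.224%) and lower for 11 (0.0665%). At least 2-fold changes made up 22 of the higher (0.133%) and 8 of the lower calls (0.0484%). In all 48 the 3 Mut-2 libraries lay on 1 side of the 3 WT-1 libraries, a separation that 1829 genes (11.1%) showed upward and 1049 (6.34%) downward among all genes tested. Without adjustment, 1494 genes (9.04%) had a p under 0.05 upward and 494 (2.99%) downward.

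**Figure D1:**
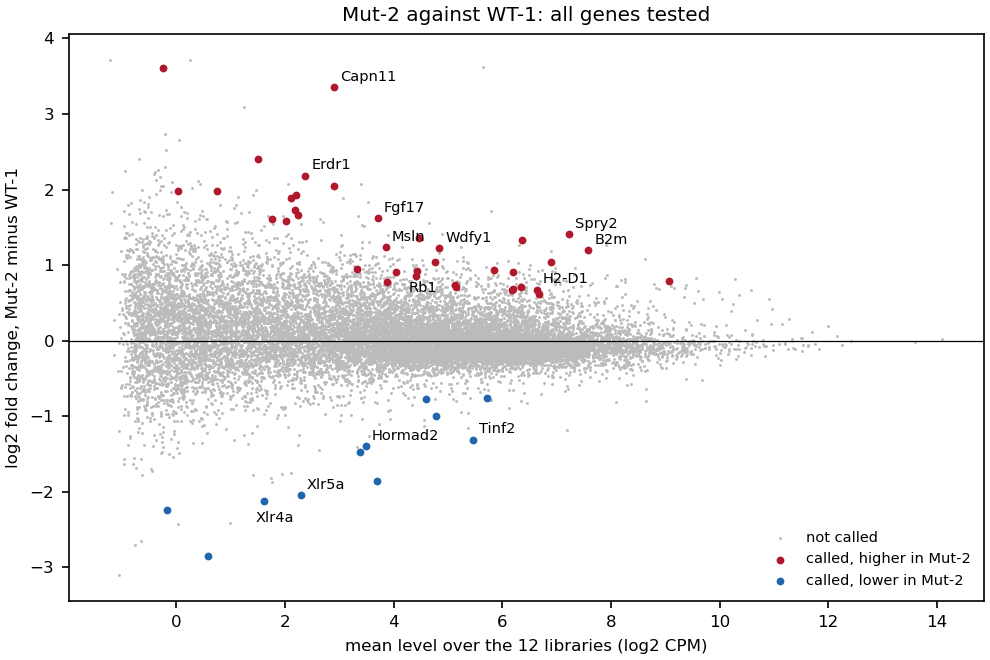
Each point is 1 of the 16533 genes tested, with its mean level over the 12 libraries (log2 CPM) on the x axis and its log2 fold change, Mut-2 minus WT-1, on the y axis. Red points are the 37 genes called higher and blue points the 11 called lower, with Capn11 highest among the labelled genes and the Xlr genes lowest.

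How many genes were called depended on single libraries. Leaving out 1 library at a time gave 16 higher and 5 lower calls without Mut-2 replicate 1, 6 and 5 without replicate 2, and 21 and 6 without replicate 3. Without WT-1 replicate 1 there were 4 and 3, without replicate 2 there were 4 and 3, and without replicate 3 there were 68 and 14. With the 6 libraries of the pair alone, 7 genes were higher and 0 lower. These included Capn11, Erdr1, Fgf17, Gm21887, Spry2 and Wdfy1. Only 6 of the 48 calls held each time 1 of the 6 libraries was left out, among them Capn11, Fgf17, Wdfy1, Xlr4a and Xlr5a. Tinf2 held in 5 of those 6 fits and 22 of the genes in at most 1.

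**Figure D2:**
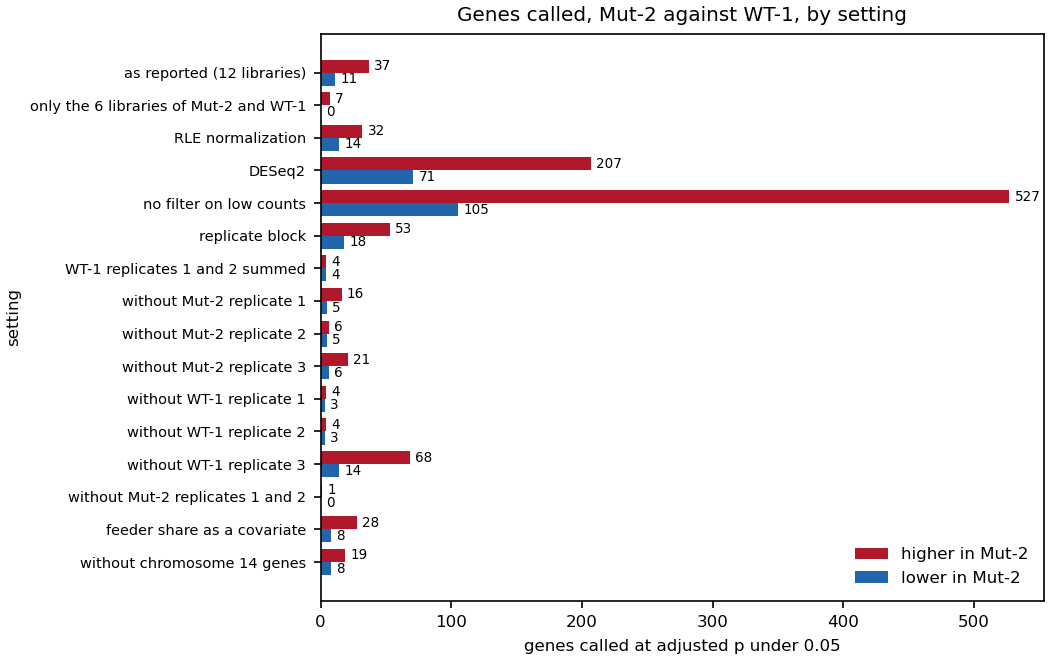
Bars give the number of genes called higher (red) and lower (blue) in Mut-2 at an adjusted p under 0.05, as reported and under each alternative on the y axis. Counts ran from 1 higher and 0 lower without both Mut-2 replicates 1 and 2 to 527 higher and 105 lower without a filter on low counts.

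The wild-type lines were compared for the same genes. The test of WT-2 against WT-1, which is the difference between setting Mut-2 beside one or the other, called 3 genes of 16533 (0.0181%), all higher in WT-2. Among the 48 genes called here it called Capn11 and Wdfy1. For both, WT-1 stood below the other wild-type line. In a further 9 higher calls and in 6 lower calls the 3 WT-2 libraries also lay beyond the 3 WT-1 libraries on the side of Mut-2, without passing that test, which does not show that the wild-type lines were alike. Each Mut-2 library was above each library of both wild-type lines in 35 of the 37 higher calls, the exceptions being Nxf3 and Wdfy1. Of the 11 lower calls this held for 5, Eda2r, Rab27a, Tinf2, Wwc1 and Xlr4b. Levels of Mut-1 were likewise beyond both wild-type lines in 22 of the higher and in 3 of the lower calls, which were Eda2r, Rab27a and Tinf2. The calls were chosen on these same Mut-2 and WT-1 libraries, and no share over all genes tested is given for these separations. Such counts describe the called genes and lend the calls no further support. Comparisons of Mut-2 with WT-2 and of Mut-1 with WT-1 share libraries with this one, so their values are given only side by side. Against WT-2, Mut-2 had 121 genes called higher (0.732%) and 32 lower (0.194%), and against Mut-1 it had 8 higher (0.0484%) and 35 lower (0.212%).

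**Figure D3:**
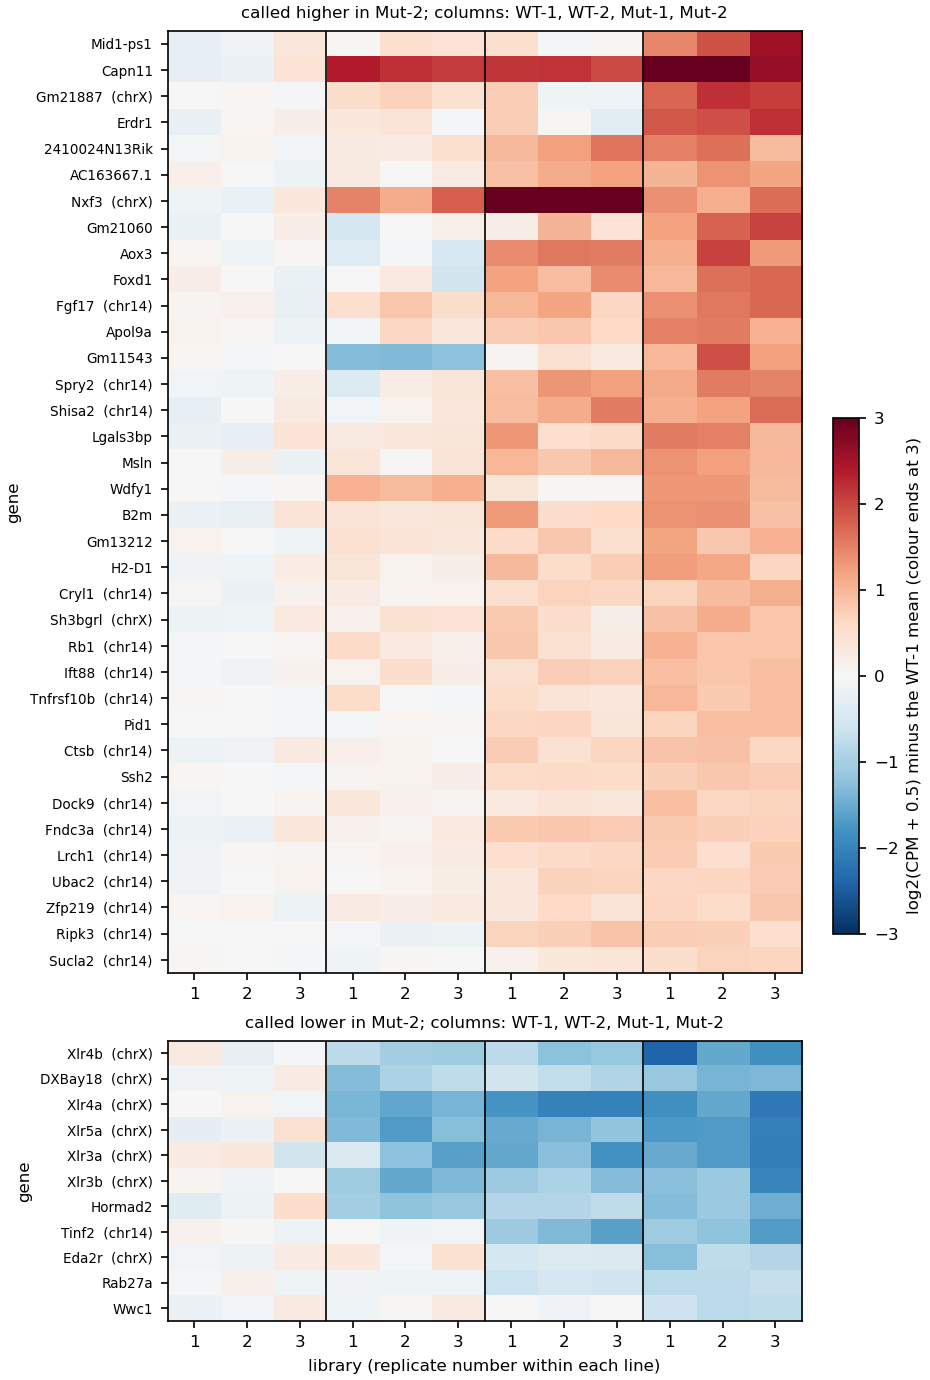
Rows are 36 of the 37 genes called higher (top) and the 11 called lower (bottom), columns the 12 libraries in blocks of 3 for the wild-type lines and then the mutant lines, and colour the log2(CPM + 0.5) minus the WT-1 mean. Capn11 and Wdfy1 are raised in WT-2 as well as in Mut-2, and most Xlr genes and Hormad2 are low in the 3 other lines and high in WT-1.

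Capn11, a calpain-type protease known from male germ cells (chromosome 17, 45630204 to 45659325), had the largest fold change among called genes of at least 2 CPM. Its level was 0.995, 1.06 and 1.85 CPM in WT-1 and at 16.4, 13.6 and 10.2 CPM in Mut-2. The lowest Mut-2 library was thus several times the highest WT-1 library. The log2 fold change was 3.36 ± 0.28 (SE; adjusted p = 0.000245). It held in all 15 alternative fits, including the one with Mut-2 replicate 3 alone (2.96, adjusted p = 0.0206). WT-2 (8.63, 7.61 and 7.01 CPM) and Mut-1 (7.32, 7.45 and 6.46 CPM) lay between the others, so that WT-2 exceeded WT-1 by 2.56 (adjusted p = 0.0056) and Mut-2 exceeded WT-2 by 0.79 (adjusted p = 0.133).

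Wdfy1, an endosomal protein with a lipid-binding FYVE domain (chromosome 1, 79702262 to 79776143), was likewise lower in WT-1 than in WT-2 and lower in Mut-1 than in Mut-2. Its levels were 17.3, 17.0 and 18.3 CPM in WT-1 and at 44.2, 44.1 and 34.4 CPM in Mut-2. The log2 fold change of 1.22 ± 0.14 (SE; adjusted p = 0.00658) held in 14 of 15 alternative fits and was lost with Mut-2 replicate 3 alone (0.96, adjusted p = 0.18). WT-2 stood at 36.4, 34.2 and 37.5 CPM, overlapping Mut-2, while Mut-1 stood at 22.8, 18.1 and 18.2 CPM. Mut-2 therefore differed from WT-2 by 0.18 (adjusted p = 0.582) and from Mut-1 by 1.05 (adjusted p = 0.00672). High levels were found in 1 wild-type and 1 mutant line.

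Erdr1, Gm21887 and Mid1-ps1, whose copies lie at the boundary of the pseudoautosomal region shared by the X and Y chromosomes, were called higher in Mut-2 against each of the other lines. Erdr1 stood at 2.11, 2.66 and 2.91 CPM in WT-1 and at 10.5, 11.1 and 13.4 CPM in Mut-2, with WT-2 between 2.45 and 3.45 CPM and Mut-1 between 1.92 and 4.54 CPM. Mut-2 libraries were apart from all others. Its log2 fold change was 2.18 ± 0.30 (SE; adjusted p = 0.00944), and the call was lost without WT-1 replicate 1 (adjusted p = 0.0947) or 2 (0.0716). For Gm21887 the log2 fold change was 2.41 ± 0.33 (SE; adjusted p = 0.00944) and for the pseudogene Mid1-ps1, below 3.5 CPM throughout, 3.61 ± 0.60 (SE; adjusted p = 0.0292). At such levels Mid1-ps1 may have passed the filter on low counts only through the Mut-2 libraries, so its calls are not independent of that filter. Against WT-2 and Mut-1 the adjusted p was 0.0338 and 0.011 for Gm21887 and 0.0388 and 0.0454 for Mid1-ps1. Without Mut-2 replicate 2 or WT-1 replicate 1 or 2 the call of Gm21887 was lost (adjusted p up to 0.087), and Mid1-ps1 stayed called only without Mut-2 replicate 1 or WT-1 replicate 3. These sequences are near copies of each other or of neighbouring genes, so the share of reads given to each is uncertain. Y-linked Ddx3y was present in both lines, at 13.8, 14.8 and 17.4 CPM in WT-1 and at 11.1, 15.7 and 10.7 CPM in Mut-2.

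Among genes of FGF signalling, the ligand Fgf17 and the inhibitors Spry2 and Shisa2 rose in Mut-2. All 3 lie on chromosome 14, like Tinf2. Fgf17, a secreted ligand of the FGF8 subfamily (70636203 to 70642268), was at 7.14, 7.46 and 5.71 CPM in WT-1 and at 18.1, 21.0 and 23.5 CPM in Mut-2. Its log2 fold change was 1.62 ± 0.20 (SE; adjusted p = 0.00675), and the call held in all 6 fits that left out 1 library. Spry2, which restrains ERK signalling downstream of receptor tyrosine kinases (105891947 to 105896819), was at 81.8, 79.2 and 98.9 CPM in WT-1 and at 190, 255 and 244 CPM in Mut-2. Its log2 fold change was 1.41 ± 0.20 (SE; adjusted p = 0.01). Shisa2, which retains FGF and Wnt receptors in the endoplasmic reticulum, was at 10.4, 12.3 and 15.2 CPM in WT-1 and at 26.9, 29.2 and 40.7 CPM in Mut-2 (log2 fold change 1.35 ± 0.22 SE; adjusted p = 0.0265). For each of these genes the lowest Mut-2 library was above the highest WT-1 library.

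Levels of Spry2 and Shisa2 in Mut-1 overlapped those in Mut-2, and those in WT-2 overlapped WT-1, while for Fgf17 both other lines lay between Mut-2 and WT-1. Spry2 was at 161, 216 and 201 CPM in Mut-1 and at 64.3, 100.5 and 112 CPM in WT-2. Mut-2 exceeded WT-2 in Spry2 by 1.32 (adjusted p = 0.0125), and WT-2 differed from WT-1 by 0.09 (adjusted p = 0.954). For Fgf17, WT-2 held 9.78, 12.3 and 9.92 CPM and Mut-1 13.9, 15.8 and 10.6 CPM, and Mut-2 exceeded WT-2 by 0.97 (adjusted p = 0.0368). Without 1 library the Spry2 call against WT-1 was lost when Mut-2 replicate 2 or WT-1 replicate 1 or 2 was left out (adjusted p 0.0815 to 0.0947). That of Shisa2 was lost without Mut-2 replicate 2 or 3 or WT-1 replicate 1 or 2 (0.0839 to 0.169).

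The list of Sprouty, FGF and ERK feedback genes had 19 members tested, of which Spry2 and Shisa2 were called higher and none lower. Over all genes tested 0.224% were called higher and 0.0665% lower, and 50.3% were positive. Positive log2 fold changes were found for 15 of the 19 members, with a median of 0.49 against 0.00 over all genes tested. They ran from -0.32 to 3.63, and the member at 3.63 was not called. Fosl1 (0.82, adjusted p = 0.2) and Il17rd (0.54, adjusted p = 0.154) did not pass. Fgf4, the ligand that embryonic stem cells make most of, was at 395, 412 and 363 CPM in WT-1 and at 334, 290 and 323 CPM in Mut-2 (adjusted p = 0.509). The list held 3 genes of chromosome 14, Spry2 and Shisa2 among them. Without these 3 genes, 0 members were called higher and the median was 0.38.

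Many of the higher calls lay on chromosome 14, which carries Tinf2. Of the 35 higher calls with a position, 15 lie there, against 540 of the 16194 tested genes with a position (3.33%). Called higher were 2.78% of the genes of this chromosome, against 0.224% of all genes tested. Their roles are varied. Ripk3 is the kinase of necroptosis (55784995 to 55788865). It was at 56.7, 56.2 and 55.1 CPM in WT-1 and at 94.1, 92.6 and 79.6 CPM in Mut-2 (log2 fold change 0.67 ± 0.11 SE; adjusted p = 0.0255). Rb1, the retinoblastoma protein that restrains entry into S phase, went from 14.6, 15.2 and 15.9 CPM to 31.9, 27.6 and 27.3 CPM (0.93 ± 0.17 SE; adjusted p = 0.0378). The TRAIL receptor Tnfrsf10b (0.90, adjusted p = 0.0292), the lysosomal protease Ctsb (0.78, adjusted p = 0.0334) and the cilium transport gene Ift88 (0.90, adjusted p = 0.0334) were called as well. So were Sucla2, a subunit of succinyl-CoA synthetase (0.61, adjusted p = 0.0315), and Dock9, an exchange factor for the GTPase CDC42 (0.74, adjusted p = 0.0265). Mut-2 and WT-1 libraries did not overlap for any of them. Each of these 7 genes lost its call without any 1 of replicates 1 and 2 of either line (adjusted p up to 0.262), and Rb1 and Sucla2 lost theirs whichever library was left out.

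The difference extended over the chromosome as a whole. For 398 genes of chromosome 14 with a mean of at least 5 CPM, the median log2 difference between Mut-2 and WT-1, relative to the other autosomes, was 0.44, a 1.36-fold higher level. It was positive for 382 of the 398 genes (95.98%). The single Mut-2 libraries gave 0.42, 0.43 and 0.41 above the WT-1 mean. Medians of the other autosomes lay between -0.05 and 0.04, and that of the X chromosome at 0.05. WT-2 differed from WT-1 on chromosome 14 by -0.02. Tinf2 was 1 of 2 of the 540 tested genes there for which every Mut-2 library lay below every WT-1 library, and 251 of the 540 (46.5%) had every Mut-2 library above. Over all genes tested the shares were 6.34% below and 11.1% above. Counts of this kind describe the libraries. Genes of a chromosome are not independent replicates, and DNA copy number was not measured here.

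**Figure D4:**
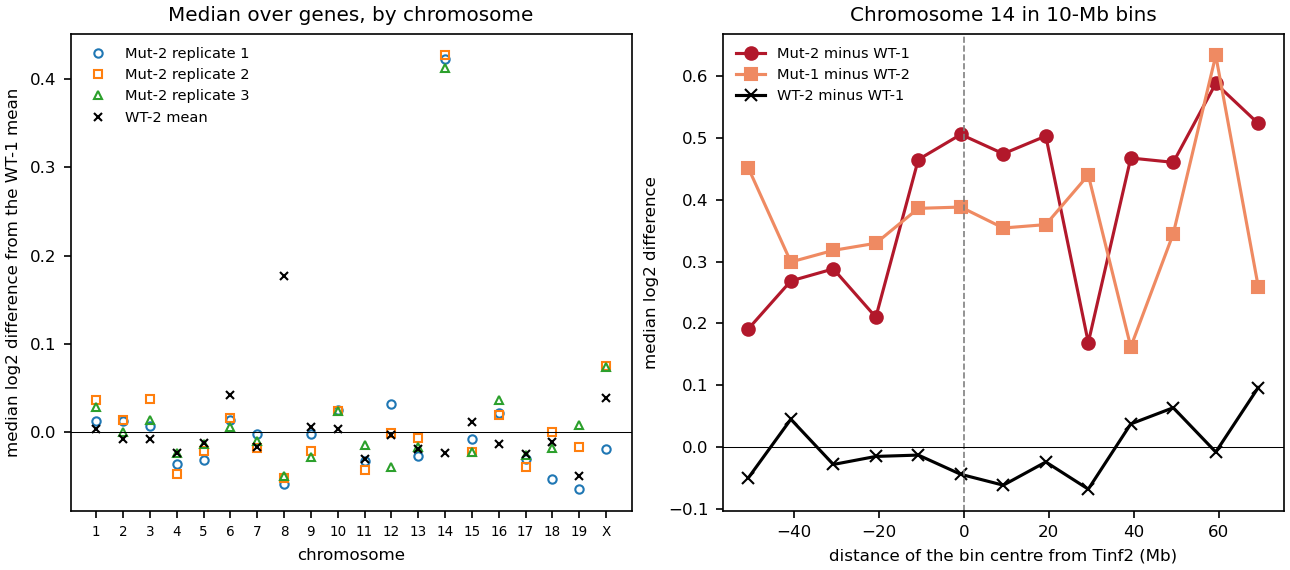
Left, the median log2 difference from the WT-1 mean of genes of at least 5 CPM for each chromosome, for the 3 Mut-2 libraries (open symbols) and the WT-2 mean (crosses); right, medians of 10-Mb bins of chromosome 14 against distance from Tinf2 for Mut-2 minus WT-1, Mut-1 minus WT-2 and WT-2 minus WT-1. Chromosome 14 stands at 0.41 to 0.43 in each Mut-2 library, and chromosome 8 at 0.18 in WT-2 only.

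Along chromosome 14 the shift was not even. Below 40 Mb the median over 110 genes was 0.25 (1.19-fold), and from 40 Mb on, over 288 genes, 0.49 (1.41-fold). This boundary was placed after the values were seen, and no test was made of it. The first part gave 0.29, 0.25 and 0.26 in the 3 Mut-2 libraries and the second 0.48, 0.50 and 0.49, so that the parts differed in each library. In Mut-1 they were closer, with 0.28 to 0.34 in the first part and 0.35 to 0.40 in the second. Tinf2 lies in the second part. Several 10-Mb bins hold few genes, such as that from 80 to 90 Mb with 4 genes and a median of 0.17, and their order is not read. Chromosome 8 differed between the wild-type lines. Its median was -0.05 in Mut-2 against WT-1, -0.23 in Mut-2 against WT-2 and 0.18 in WT-2 against WT-1. The lower level of chromosome 8 in Mut-2 was thus much smaller without WT-2. Against WT-1 it was still the lowest of the chromosome medians, with 254 of 620 genes (40.97%) above the median of the other autosomes.

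Most genes that were lower in Mut-2 belong to a gene cluster on the X chromosome. Of the 11 lower calls, 7 are X-linked, and 6 of these lie between 73074345 and 73292976, namely Xlr3a, Xlr3b, Xlr4a, Xlr4b, Xlr5a and DXBay18. The Xlr genes (X-linked lymphocyte-regulated) are related to Sycp3, a protein of the meiotic chromosome axis, and some of them are imprinted in brain. The promoters of Xlr4a and Xlr4b are shown because this pair is nearly identical. The 250 bases before their starts are given (RefSeq, GRCm38.p6; Xlr4a at chrX:73082508-73082757 on the minus strand, Xlr4b at chrX:73214083-73214332 on the plus strand). When aligned they are identical at 239 of 257 columns (93.0%), while the other pairs of the 6 Xlr promoters examined were identical at 48.3% to 69.5%.
Xlr4a: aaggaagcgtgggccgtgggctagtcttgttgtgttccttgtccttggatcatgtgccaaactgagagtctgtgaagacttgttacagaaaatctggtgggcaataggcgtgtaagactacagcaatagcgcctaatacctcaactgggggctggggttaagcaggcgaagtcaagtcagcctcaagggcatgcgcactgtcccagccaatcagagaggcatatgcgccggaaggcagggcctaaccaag
Xlr4b: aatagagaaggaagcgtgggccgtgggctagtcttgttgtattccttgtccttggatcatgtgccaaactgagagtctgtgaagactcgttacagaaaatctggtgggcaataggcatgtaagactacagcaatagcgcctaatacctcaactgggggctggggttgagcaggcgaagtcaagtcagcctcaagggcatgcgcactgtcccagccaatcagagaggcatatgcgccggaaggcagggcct
Where copies are this alike, reads can be given to the wrong member. The annotated span of Xlr5a also contains Xlr3b and Xlr4b on the other strand, and the strand setting of the counting is not given in the sources used here. Values of single members are therefore uncertain.

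Xlr4a was at 6.55, 7.10 and 6.16 CPM in WT-1 and at 1.49, 1.94 and 1.11 CPM in Mut-2. Its log2 fold change was -2.12 ± 0.26 (SE; adjusted p = 0.00675). Xlr5a was at 7.84, 8.40 and 13.3 CPM in WT-1 and at 2.58, 2.63 and 1.94 CPM in Mut-2 (-2.04 ± 0.27 SE; adjusted p = 0.00898). Both calls held in each fit that left out 1 library, while with the 6 libraries alone the adjusted p was 0.0673 and 0.0798. Xlr3b fell from 19.8, 17.3 and 18.7 CPM to 7.50, 8.26 and 4.36 CPM (-1.47 ± 0.23 SE; adjusted p = 0.0255). Xlr3a went from 28.3, 29.8 and 16.2 CPM to 8.01, 7.07 and 5.26 CPM (-1.86 ± 0.33 SE; adjusted p = 0.0334). Xlr3b lost its call without Mut-2 replicate 1 or WT-1 replicate 1 or 2 (adjusted p up to 0.157), and Xlr3a stayed called only without WT-1 replicate 3. Xlr5b, at 6.38, 5.03 and 8.35 CPM in WT-1 and at 2.46, 1.94 and 0.969 CPM in Mut-2, did not pass (-1.86, adjusted p = 0.0606).

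For most of this cluster WT-1 libraries were the highest of the 4 lines. WT-2 held 2.23, 1.90 and 2.18 CPM of Xlr4a, and Mut-1 1.57, 1.24 and 1.24 CPM. All WT-2 libraries were below all WT-1 libraries for Xlr3b, Xlr4a, Xlr4b, Xlr5a and DXBay18. Mut-2 differed from WT-2 in Xlr4a by -0.47 (adjusted p = 0.447) and in Xlr5a by -0.44 (adjusted p = 0.491). WT-2 differed from WT-1 by -1.65 (adjusted p = 0.0672) and -1.60 (adjusted p = 0.0738), short of the threshold. DESeq2, a second tool, called 8 of the 48 genes in WT-2 against WT-1, where edgeR called 2.

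Hormad2, which marks unsynapsed chromosomes in meiosis (chromosome 11, 4345814 to 4441105), was likewise highest in WT-1. It was at 14, 16.3 and 26.6 CPM in WT-1 and at 7.16, 8.14 and 6.30 CPM in Mut-2 (-1.40 ± 0.23 SE; adjusted p = 0.0275). WT-2 (8.69, 7.67 and 8 CPM) was beside Mut-2. The call was lost without WT-1 replicate 2 or any 1 of the Mut-2 libraries (adjusted p 0.077 to 0.0876). On the list of 30 tested meiosis and germline genes none was called, 20 were lower and 10 higher, and the median was -0.29. Of all genes tested, 0.29% were called and 50.3% were positive. Log2 fold changes on the list ran from -1.76 to 2.12. The list medians were -0.002, -0.15 and -0.55 in Mut-2 replicates 1, 2 and 3. Among the lower genes, Rhox6 was at 3.98, 3.91 and 3.25 CPM in WT-1 and at 1.49, 1.63 and 1.66 CPM in Mut-2 (-1.22, adjusted p = 0.104). Stag3, a meiotic cohesin subunit, was at 44.0, 49.2 and 44.7 CPM against 33.2, 28.2 and 24.1 CPM (-0.69, adjusted p = 0.0716). Hsf2bp, a partner of BRCA2 in meiosis, stood at -0.78 (adjusted p = 0.0801). Slc38a4, an imprinted amino acid transporter, was at 191, 194 and 279 CPM in WT-1 and at 129, 99.7 and 65.0 CPM in Mut-2 (-1.18, adjusted p = 0.0527). The list of 34 tested imprinted genes went the other way, with 23 positive, a median of 0.27, a lowest log2 fold change of -0.29 and 0 called.

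The other lower calls were Eda2r, Rab27a and Wwc1. Eda2r, an X-linked receptor of the TNF receptor family and a p53 target, was at 30.1, 28.5 and 37.8 CPM in WT-1 and at 12.8, 18.6 and 17.0 CPM in Mut-2 (-0.99 ± 0.18 SE; adjusted p = 0.0364). Rab27a, a GTPase of vesicle secretion, was at 29.8, 33.7 and 27.7 CPM in WT-1 and at 17.2, 17.5 and 18.7 CPM in Mut-2 (-0.78 ± 0.12 SE; adjusted p = 0.0255). Wwc1, a scaffold of the Hippo pathway, was at 51.3, 54.7 and 70.0 CPM in WT-1 and at 37.4, 32.8 and 34.1 CPM in Mut-2 (-0.75 ± 0.14 SE; adjusted p = 0.0439). All Mut-2 libraries lay below all those of both wild-type lines for these 3 genes. Against WT-2 the log2 differences were -1.25 (adjusted p = 0.011), -0.64 (adjusted p = 0.0348) and -0.81 (adjusted p = 0.0226). Leaving out 1 library ended the calls of Eda2r (adjusted p 0.0648 to 0.169) and Wwc1 (0.0663 to 0.238) each time. Rab27a stayed called only without Mut-2 replicate 3 or WT-1 replicate 3.

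Genes of antigen presentation and of the interferon response had mostly positive log2 fold changes in Mut-2, and few passed the test. B2m, the light chain of MHC class I, was at 106, 102 and 157 CPM in WT-1 and at 304, 309 and 221 CPM in Mut-2 (log2 fold change 1.19 ± 0.22 SE; adjusted p = 0.0364). H2-D1, an MHC class I heavy chain, was at 74.0, 73.3 and 94.1 CPM in WT-1 and at 192, 178 and 125 CPM in Mut-2 (1.04 ± 0.17 SE; adjusted p = 0.0292). Of 17 tested MHC class I and antigen processing genes these 2 were called, 16 were positive, and the median was 0.68. Over all genes tested, 0.224% were called higher and 50.3% were positive. The interferon and nucleic-acid sensing list had 0 of 37 called at the adjusted threshold by edgeR, 33 positive and a median of 0.81. Within it, Isg15 was at 12.3, 9.71 and 19 CPM in WT-1 and at 43.0, 47.1 and 30.9 CPM in Mut-2 (1.56, adjusted p = 0.0843), and Irf7 at 3.98, 3.79 and 7 CPM against 30.3, 11.5 and 11.2 CPM (1.84, adjusted p = 0.105). Called outside both lists were Lgals3bp, a secreted galectin-3 binding protein (1.33 ± 0.23 SE; adjusted p = 0.0334), and Apol9a, of the apolipoprotein L family (1.62 ± 0.28 SE; adjusted p = 0.0326).

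Promoters of interferon-stimulated genes often carry a repeated GAAA motif, which transcription factors of the interferon response bind. The 250 bases before the start of B2m (chr2:122147437-122147686, plus strand), Apol9a (chr15:77411081-77411330, minus strand) and Isg15 (chr4:156200819-156201068, minus strand) are shown to let this motif be seen, from RefSeq on GRCm38.p6. Capitals mark matches to 2 copies of GAAA spaced 2 bases apart, on either strand, overlapping matches joined.
B2m: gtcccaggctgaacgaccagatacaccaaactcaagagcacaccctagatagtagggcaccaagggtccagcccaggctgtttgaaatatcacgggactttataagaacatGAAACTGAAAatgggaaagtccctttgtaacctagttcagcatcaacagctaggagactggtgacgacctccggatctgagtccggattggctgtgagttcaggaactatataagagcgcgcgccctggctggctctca
Apol9a: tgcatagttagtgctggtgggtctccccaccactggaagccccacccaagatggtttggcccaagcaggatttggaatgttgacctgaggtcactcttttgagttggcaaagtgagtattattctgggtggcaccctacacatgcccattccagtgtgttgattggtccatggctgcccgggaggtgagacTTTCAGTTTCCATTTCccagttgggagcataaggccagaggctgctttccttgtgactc
Isg15: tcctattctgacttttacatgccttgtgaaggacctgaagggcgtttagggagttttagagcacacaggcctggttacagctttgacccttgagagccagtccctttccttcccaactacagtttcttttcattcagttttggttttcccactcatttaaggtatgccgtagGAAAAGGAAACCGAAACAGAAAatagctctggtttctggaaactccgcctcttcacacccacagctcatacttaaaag
A match was found in the windows of 349 of 11223 tested genes that have one (3.11%), and in 978 of all 32851 windows (2.98%). On the interferon list 11 of 27 genes with a window held it (40.7%), and on the MHC class I list 2 of 14 (14.3%). The windows of H2-D1, Irf7 and Lgals3bp hold no match to these letters. The matches describe the sequence and were not tested for binding.

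Among the Mut-2 libraries, replicate 3 had the lowest feeder share and the lowest medians of the interferon and MHC class I lists. Replicates 1 and 2 had a similar feeder share, and their medians of the interferon, MHC class I and feeder lists differed. The cause of these differences was not tested. Feeder fibroblast markers, such as collagens, took 1.08%, 1.11% and 1.39% of the counts in WT-1 and 2.09%, 2.19% and 1.28% in Mut-2 (95% Wilson interval 2.18% to 2.19% for Mut-2 replicate 2, covering counting error only). Mut-2 replicates 1 and 2 were therefore high and replicate 3 lay in the range of WT-1. The difference of the means was 0.657 percentage points, 1.85% ± 0.498 (SD, n = 3) against 1.19% ± 0.171 (SD, n = 3). The exact permutation test, two-sided, gave p = 0.2, where 0.1 is the smallest possible. All 35 feeder markers were positive, with a median of 0.75, and 0 were called. In Mut-2 replicates 1, 2 and 3 the median of the interferon list was 1.13, 0.60 and 0.27, that of the MHC class I list 0.95, 0.57 and 0.27, and that of the feeder list 0.77, 1.01 and 0.38. Of 9 blood and macrophage markers, 6 passed the filter on low counts and none was called. Among them Cd68 stood at 26.3, 27.4 and 34.3 CPM in WT-1 and at 51.9, 39.5 and 40.4 CPM in Mut-2 (adjusted p = 0.256). With Mut-2 replicate 3 alone against WT-1, B2m differed by 0.86 (adjusted p = 0.48) and H2-D1 by 0.63 (adjusted p = 0.457). When the fit included the feeder share, B2m gave 0.80 (adjusted p = 0.0555), H2-D1 0.75 (adjusted p = 0.0725) and Lgals3bp 0.90 (adjusted p = 0.0435). Each of B2m, H2-D1 and Lgals3bp was called in 2 of the 6 fits that left out 1 library, those without replicate 3 of either line, and Apol9a only without Mut-2 replicate 3. Bulk libraries cannot separate a change per cell from a change in the number of cells of a type.

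The remaining named genes that were called higher outside chromosome 14 were Aox3, Foxd1, Msln, Pid1, Nxf3, Sh3bgrl and Ssh2. Msln, the cell-surface protein mesothelin, was at 8.84, 9.88 and 7.62 CPM in WT-1 and at 23.1, 21.2 and 17.8 CPM in Mut-2 (1.24 ± 0.17 SE; adjusted p = 0.01). Aox3, an aldehyde oxidase, was at 2.22, 1.89 and 2.24 CPM in WT-1 and at 5.04, 10.3 and 5.88 CPM in Mut-2 (1.74 ± 0.29 SE; adjusted p = 0.0292). Foxd1, a forkhead transcription factor, was at 2.81, 2.37 and 2.02 CPM in WT-1 and at 5.27, 8.57 and 9.07 CPM in Mut-2 (1.67 ± 0.31 SE; adjusted p = 0.0404). Levels of these 3 genes in Mut-1 overlapped those in Mut-2, and those in WT-2 overlapped WT-1. Aox3, for instance, was at 6.47, 7.38 and 7.2 CPM in Mut-1 and at 1.51, 2.02 and 1.39 CPM in WT-2. Msln and Aox3 lost their call without Mut-2 replicate 2 or WT-1 replicate 1 or 2 (adjusted p up to 0.0947 and 0.176), and Foxd1 stayed called only without Mut-2 replicate 1. Nxf3, of the RNA export factor family, was at 0.527, 0.473 and 0.896 CPM in WT-1, 2.40, 1.88 and 3.05 CPM in Mut-2 and at 2.66, 1.90 and 3.37 CPM in WT-2. Its highest levels were in Mut-1, at 13.1, 9.87 and 14.1 CPM. Its log2 fold change against WT-1 was 1.93 ± 0.35 (SE; adjusted p = 0.0364), and against WT-2 it was -0.11 (adjusted p = 0.901). The call stood only without WT-1 replicate 3 among the fits that left out 1 library.

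Telomere genes other than Tinf2 did not pass. Of 7 shelterin genes tested Tinf2 was called lower and none higher. Terf1, which encodes the telomere-binding subunit TRF1, was at 96.9, 98.0 and 77.0 CPM in WT-1 and at 140, 147 and 145 CPM in Mut-2 (0.67 ± 0.15 SE; adjusted p = 0.0948). All Mut-2 libraries were above WT-1. DESeq2 gave it an adjusted p of 0.0178, and the fit with the feeder share 0.0321. Terf2, the TRF2 gene, was at 49.2, 52.3 and 38.1 CPM in WT-1 and at 41.6, 38.4 and 34.1 CPM in Mut-2, so that the lines overlapped (-0.29, adjusted p = 0.438). None of 15 tested genes of telomerase and telomere replication and none of 13 genes of ATRX, DAXX and H3.3 chromatin was called. Only 0.29% of all genes tested were called, so the lack of calls in lists this small is no result about them. The medians of the 2 lists were 0.00 and -0.14.

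Genes of recombination, replication and mitosis had mostly small negative log2 fold changes, and 0 of them were called. Negative log2 fold changes were found for 30 of 32 homologous recombination genes (median -0.20), 25 of 26 genes of origin licensing (-0.18), 33 of 34 of the replication fork and nucleotide supply (-0.21) and 24 of 27 of mitosis (-0.17). Over all genes tested, 8320 of 16533 (50.3%) were positive and 0.29% were called. Every Mut-2 library lay below every WT-1 library for 7 of the 32, 2 of the 26, 6 of the 34 and 6 of the 27 genes. Over all genes tested this share was 6.34%. Summed levels overlapped between the lines in each of these lists. Fork genes, for example, summed to 4862, 4803 and 3804 CPM in WT-1 and to 3413, 3713 and 4552 CPM in Mut-2. Pole, a replicative DNA polymerase, was at 136, 139 and 136 CPM against 103, 107 and 114 CPM (-0.34, adjusted p = 0.189). In Mut-2 replicate 3 the medians of licensing, fork and mitosis genes, relative to the WT-1 mean, were 0.04, -0.01 and -0.01. Replicates 1 and 2 gave -0.16 to -0.39. Homologous recombination genes gave -0.17, -0.28 and -0.11 in replicates 1, 2 and 3. The cause of these differences between libraries was not tested.

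**Figure D5:**
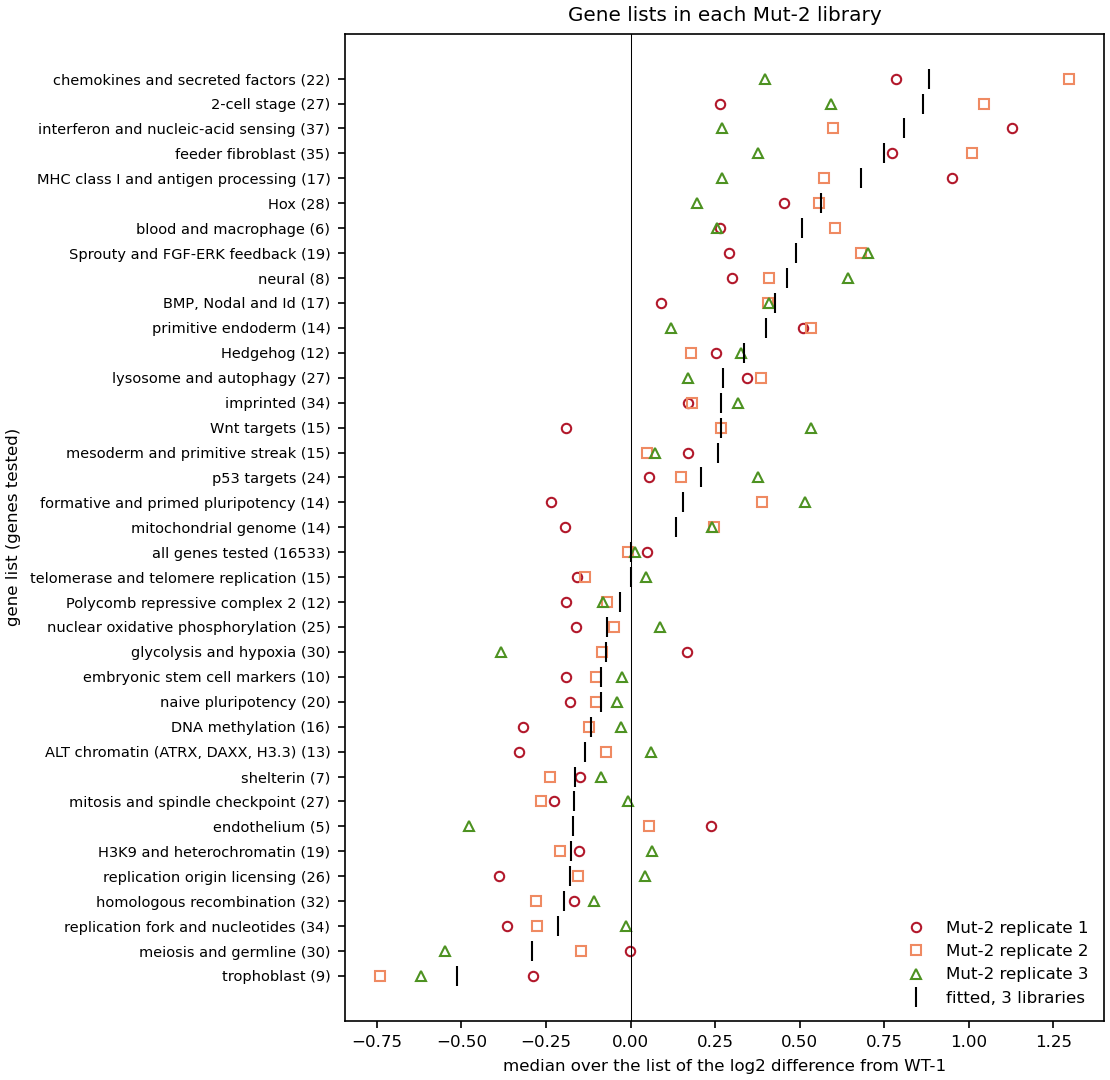
For each gene list on the y axis (number of genes tested in parentheses) the symbols give the median log2 difference from WT-1 in each of the 3 Mut-2 libraries, and the bar the median of the fitted log2 fold changes. Relative to the WT-1 mean, feeder, interferon and MHC class I lists are positive in each library and smallest in replicate 3. Lists of replication genes are near 0 in replicate 3. The feeder share of Mut-2 replicate 3 lay within the range of the WT-1 libraries.

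Genes of the 2-cell stage, a totipotent-like state in which Zscan4 and related genes are switched on in a few embryonic stem cells, depended on the wild-type line chosen. Of 27 tested, 25 were positive in Mut-2 against WT-1 (50.3% over all genes tested), with a median of 0.86, and 0 were called. Against WT-2 the median was 2.07, and WT-2 lay below WT-1 with a median of -1.23. Zscan4c was at 6.09, 5.80 and 4.82 CPM in WT-1 and at 6.75, 15.3 and 9 CPM in Mut-2 (0.89, adjusted p = 0.292). It was chosen after its values were seen, as the best known member. The 3 Mut-2 libraries gave list medians of 0.26, 1.05 and 0.59. Hox genes had 25 of 28 positive with a median of 0.56 and 0 called, and chemokines and secreted factors 21 of 22 with a median of 0.88 and 0 called, both smallest in Mut-2 replicate 3 (0.20 and 0.40). Of 24 tested p53 targets, Tnfrsf10b was called higher and Eda2r lower (median 0.21), against 0.224% and 0.0665% of all genes tested. None of the genes tested for naive pluripotency (20), formative and primed pluripotency (14), BMP, Nodal and Id (17), Wnt targets (15), DNA methylation (16) or Polycomb repressive complex 2 (12) was called. Trophoblast markers had a negative median (-0.51, 9 tested, 0 called), with Krt8 at 36.5, 36.2 and 37.6 CPM in WT-1 and at 26.7, 20.1 and 20.9 CPM in Mut-2 (-0.70, adjusted p = 0.108).

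The other crossed pair, Mut-1 against WT-2, shares no library with this one and was fitted on its own 6 libraries. In those separate fits, 7 genes were called higher and 0 lower in Mut-2 against WT-1 (0.0442% and 0.0% of 15838 tested), and 41 higher and 7 lower in Mut-1 against WT-2 (0.259% and 0.0443% of 15815). No gene was called in both, 0% of either list. Without a filter on low counts 75 genes were. With only 7 calls in the first pair, the empty overlap does not show that the pairs share no difference. Tinf2 was at -1.32 in the first pair (adjusted p = 0.066) and at -1.29 in the second (adjusted p = 0.023). Spry2 was at 1.40 (adjusted p = 0.0432) and 1.06 (adjusted p = 0.0761), and Fgf17 at 1.61 (adjusted p = 0.0432) and 0.33 (adjusted p = 0.571). Wdfy1 and Capn11 pointed the other way in the second pair, at -0.87 (adjusted p = 0.0536) and -0.13 (adjusted p = 0.848). In the fit of all 12 libraries, Mut-1 against WT-2 was called for Aox3 (2.09, adjusted p = 0.00483), Spry2 (1.07, adjusted p = 0.027) and Shisa2 (1.11, adjusted p = 0.0357). It was not called there for Fgf17 (0.33, adjusted p = 0.499) or Capn11 (-0.13, adjusted p = 0.866). The test of the difference between the pairs, over all 12 libraries, called 7 genes of 16533 (0.0423%).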

How the data were processed

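The authors deposited a table of raw counts, 1 whole number per gene and library, without normalisation. The build GRCm38 and the tools HISAT2 2.1.0, Bowtie2 2.2.3, HTSeq 0.6.0 and bcl2fastq stand in the submitters' processing notes. Annotation and strand setting were not given in the sources used here. Of 31641 gene symbols, 29572 had a position in GENCODE M21 on that build.

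All 12 libraries were fitted with 4 line groups in edgeR 4.0.16 (R 4.3.3) and tested by quasi-likelihood, with TMM normalisation, filterByExpr and Benjamini-Hochberg adjustment over all genes tested. Genes were called at an adjusted p under 0.05, and the contrast was Mut-2 minus WT-1. The SE of a log2 fold change is its size divided by the square root of F. The procedure was also run on simulated counts, drawn independently for each library. These held no differences between libraries of a line beyond library size and independent noise, unlike the real libraries. DESeq2 1.42.0 was an alternative. Others were the 6 libraries alone, RLE normalisation, no filter, the replicate number as a block, WT-1 replicates 1 and 2 summed, libraries left out, the feeder share as a covariate, and no chromosome 14 genes. CPM are TMM-normalised. Chromosome medians used log2(CPM + 0.5), relative to the other autosomes.

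Named in each direction were the 12 genes of largest fold change among non-overlapping calls of at least 2 CPM, filled where fewer passed by non-overlapping genes, and the 5 of smallest p from 20 CPM. Tinf2 and up to 4 members of each of 37 gene lists (741 symbols, 692 tested) were added. Other called genes, Y-linked and stem cell genes and Zscan4c were named after their values were seen. The comparison, the lists and the rules were chosen with earlier results of these data known. The transposable element data mentioned in the labels are not analysed here. Some results, a called gene among them, are not reported here.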

Additional observations from a re-analysis of the deposited data

Results flagged for a closer look

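For 3 named genes the difference between Mut-2 and WT-1 differed from that between Mut-1 and WT-2, as tested by the interaction of the 2 pairs over all 12 libraries with edgeR's quasi-likelihood test. Wdfy1 had the smallest adjusted p, 0.001395, with a difference of 2.09 on the log2 scale between a log2 fold change of 1.22 in Mut-2 against WT-1 and of -0.87 in Mut-1 against WT-2. Capn11 differed by 3.49 (adjusted p = 0.002187), between 3.36 and -0.13. Krt8, a keratin of simple epithelia and trophoblast, differed by -1.67 (adjusted p = 0.02872), between -0.70 and 0.96. Among wild-type libraries Krt8 stood at 36.5, 36.2 and 37.6 CPM in WT-1 and at 24, 22.8 and 25 CPM in WT-2. Among mutant libraries it stood at 46.1, 36.9 and 56.9 CPM in Mut-1 and at 26.7, 20.1 and 20.9 CPM in Mut-2, so that WT-1 was the higher wild-type line and Mut-1 the higher mutant line.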

How the results depend on the processing

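Counts are given as higher and lower, then as at least 2-fold higher and lower. As reported they were 37, 11, 22 and 8. With the 6 libraries alone they were 7, 0, 7 and 0, with DESeq2 207, 71, 86 and 20, without a filter on low counts 527, 105, 188 and 37, with WT-1 replicates 1 and 2 summed 4, 4, 4 and 4, and without both Mut-2 replicates 1 and 2 they were 1, 0, 1 and 0 (the lone library assumed to vary like the other groups). Leaving out 1 library gave 4 to 68, 3 to 14, 4 to 40 and 3 to 9. With the feeder share as a covariate 13 genes were at least 2-fold higher, and without chromosome 14 genes 19 were higher. The cause of these changes was not tested.

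The replicate numbers did not pair the libraries: deviations of same-numbered Mut-2 and WT-1 libraries correlated at -0.0872, -0.217 and -0.247 over 13182 genes, and no Mut-2 library correlated best with its own number. With the replicate block, 53 genes were higher and 18 lower.

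Tinf2 stayed negative, at -1.32 with the 6 libraries (adjusted p = 0.066), -1.71 without both Mut-2 replicates 1 and 2 (0.0946) and -1.44 to -1.15 without 1 library. WT-2 against WT-1 called 2 of the 48 genes as reported, 8 with DESeq2, 9 without a filter, 1 with WT-1 replicates summed and 0 to 4 without 1 library. Without a filter 75 genes were shared by the 6-library fits of both crossed pairs, against 0. The feeder share difference was 0.0857 without both Mut-2 replicates 1 and 2 and 0.49 to 0.943 without 1 library. The chromosome 14 median was 0.413 without both and 0.415 to 0.434 without 1 library.

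Of uncalled genes, direction reversed with the feeder share for Esrrb (0.0121), Cd14 (-0.16), Lamb1 (-0.0092), Gar1 (0.0259), P4ha2 (-0.0828), Ndufb8 (0.0058) and Aox1 (-0.0949). It reversed without both Mut-2 replicates 1 and 2 for Cd14 (-0.64), Setdb1 (0.0291), P4ha1 (-0.0907) and P4ha2 (-0.25), and without Mut-2 replicate 2 for Cd14, which ranged from -0.15 to 0.75 without 1 library. Other single genes kept their direction in the settings run. Counting depth limits genes under about 2 CPM, such as Xlr4b, DXBay18 and Mid1-ps1.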
